A study of Mus musculus with 8 samples.

Results

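Polycomb group proteins oppose the Trithorax group, to which the histone methyltransferase Mll1 (gene Kmt2a) belongs, and the data were examined for the level of 10 Polycomb subunit genes in Paneth cells with and without Mll1. The genes were taken by name from the deposited count table as Ezh1, Ezh2, Eed, Suz12, Jarid2, Mtf2, Bmi1, Cbx7, Ring1 and Rnf2, and all 10 were found among its 53801 genes. Paneth cells are the secretory cells at the base of small intestinal crypts, which are rich in granules of defensins and lysozyme. They were sorted as viable EpCAM+ Cd24+ cells, 300 per tube, from 2 genotypes with 4 mice each, β-cat GOF; Mll1+/- as the controls and β-cat GOF; Mll1-/- as the knockouts, numbered 1 to 4 in either. Every mouse of both groups carried Lgr5-EGFP-IRES-CreERT2, so that recombination was driven from the Lgr5 promoter and gives a mosaic of recombined and wild-type crypts. From Mll1 staining, the study reports that the crypt cells of the knockouts, Paneth cells included, lacked Mll1 when sorted. The sort as described used no marker of recombination, and the share of wild-type cells in the libraries was not measured here. All mice carried the β-catenin allele from which Cre removes exon 3, which stabilizes the protein and keeps Wnt signalling high. The groups differed in Mll1 flox/+ against Mll1 flox/flox, so the controls had lost 1 copy of Mll1. Mice were 4 to 6 wk old at induction, received 1 mg tamoxifen on 3 days, and the cells were collected 10 d later. The methods paragraph on the sorting names the Mll1 alleles and the Cre line without β-cat GOF, while the account of the results gives the genotypes used here.

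Polycomb proteins work in 2 complexes that silence genes through histone marks. PRC2 methylates lysine 27 of histone H3 through Ezh2 or its paralogue Ezh1, and needs Eed and Suz12 for this activity. Jarid2 and Mtf2 are accessory subunits that belong to alternative forms of PRC2 and help it to reach its target sites. PRC1 ubiquitinates histone H2A through the RING proteins Rnf2 (Ring1b) or Ring1 (Ring1a), paired with a PCGF protein such as Bmi1, and in its canonical form it binds the H3 mark through a CBX protein such as Cbx7. In the intestinal epithelium, Polycomb proteins are known for keeping lineage-inappropriate developmental genes silent, and Bmi1 is also known as a marker of a crypt cell population.

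Each library held between 13037832 and 14380240 counts on genes, and 1 library stood apart. Knockout 3 had 19662 genes with a count, against 22623 to 26074 in the others, its mitochondrial share was 2.04%, against 3.26% to 8.78%, and its 50 most abundant genes took 88.1% of all counts, against 76.4% to 84.8%. The log2 fold change of each member is therefore also given without it. The 9 Paneth markers examined summed to between 274791 and 545588 normalized CPM (the counts of a gene relative to its library's total, adjusted by TMM factors) in the controls and between 259568 and 771469 in the knockouts, so the markers of the labelled cell type were abundant in every library. Defa24 held the largest part of this sum, with 182656 to 510974 CPM. Pla2g2a ran from 458 to 45370 CPM over the 8 libraries, and the cause of this spread was not tested. Immune markers summed to at most 14.3 CPM in a library, with 3 of 6 at no more than 3 counts, and stromal and endothelial markers to at most 6.93 CPM in a library. The 4 enteroendocrine markers summed to between 108 and 320 CPM in the controls and between 18 and 134 CPM in the knockouts. The 4 tuft markers summed to between 118 and 337 CPM in the controls and between 58.2 and 225 CPM in the knockouts, and the 7 enterocyte markers to between 142 and 325 CPM and between 89 and 235 CPM. Of those tested, 4 of 4 enteroendocrine, 4 of 4 tuft and 4 of 5 enterocyte markers had a log2 fold change below 0. None passed an adjusted p of 0.05 in edgeR, and Neurod1 (adjusted p 0.0629) passed at a false discovery rate of 10%. The 7 goblet markers summed to between 9251 and 17723 CPM in the controls and between 7859 and 18944 CPM in the knockouts, with 4 of 7 below 0, and the 4 stem markers to between 557 and 1235 CPM and between 190 and 792 CPM, with 3 of 4 below 0. An unadjusted p under 0.05 was found for 4 of 4 enteroendocrine, 0 of 4 tuft, 2 of 5 enterocyte, 2 of 7 goblet and 2 of 4 stem markers, lower in the knockouts in each case, beside 6.88% of all tested genes. The part of these cells in the members' values was not tested. Kmt2a itself had a control mean of 32.2 ± 10.8 CPM and a knockout mean of 30.9 ± 5.54 CPM (SD, n = 4). Its counts were summed over the whole gene, so they cannot show the loss of the floxed part and check no label.

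A difference between the genotypes was not detected for any of the 10 Polycomb genes. With edgeR's quasi-likelihood test, 0 of 10 were called at a Benjamini-Hochberg adjusted p of at most 0.05 with a log2 fold change reaching 0.5 in either direction, while 25 of all 13439 tested genes were called, or 0.186%. At a false discovery rate of 10%, 0 of 10 were called, against 38 of all tested genes, or 0.283%. No member reached an unadjusted p under 0.05 (924 of all tested genes did, or 6.88%), and DESeq2 and limma-voom gave 0 of 10 at both levels too. The groups overlapped for 10 of 10 members, whereas they lay fully apart for 608 of all tested genes, or 4.52%. All 10 had passed the filter on low counts, with between 13 and 721 counts in a library. The knockout means were higher for 9 members and lower for 1, with log2 fold changes from -0.04 to 0.25 and a median of 0.13, beside a median of 0.01 over all tested genes. Median sizes of the log2 fold change, whatever the sign, were 0.13 for the members and 0.25 for all tested genes. These medians are not matched for level, and 8 of the 10 members lay above the median level of all tested genes.

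The precision differed between the members. The 95% interval of the log2 fold change lay inside a 2-fold change in either direction for 8 of 10 genes, and inside a 1.5-fold change for 3 of 10, namely Eed, Suz12 and Jarid2. It reached 2.20-fold higher for Cbx7 and 2.00-fold higher for Ring1, which had the fewest counts. In bulk RNA of sorted cells, fewer cells expressing a gene and less RNA of it per cell cannot be told apart.

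**Figure D1:**
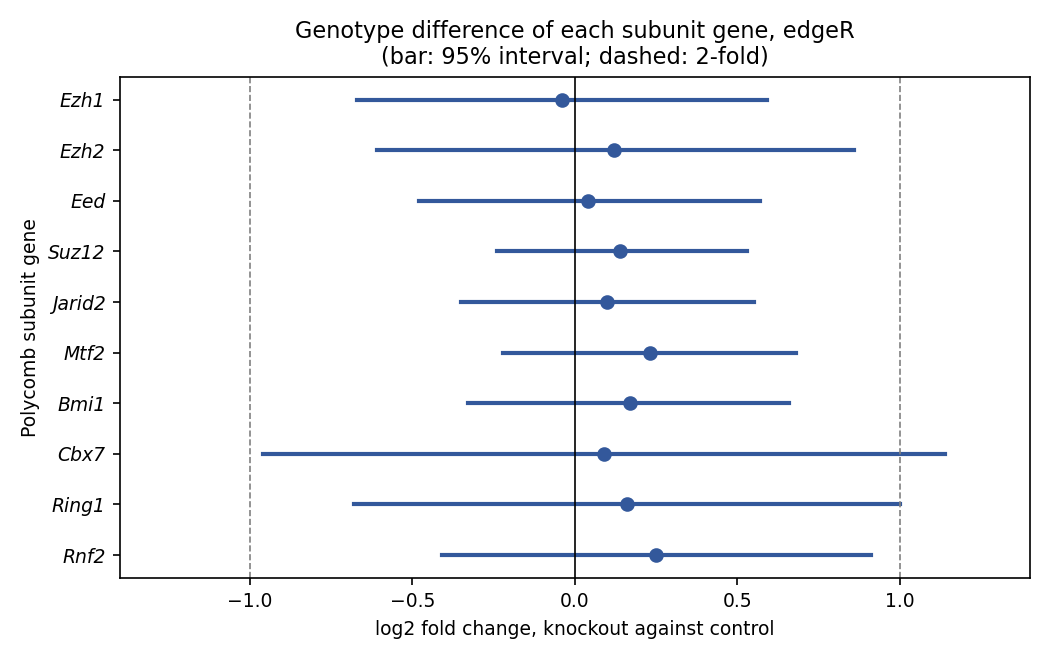
Log2 fold change of each Polycomb subunit gene, knockout against control, from edgeR (points) with its 95% interval (bars, n = 4 libraries per group), dashed lines marking a 2-fold change. All 10 intervals include 0, and those of Cbx7 and Ring1 are the ones that reach a 2-fold increase.

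Ezh2 (ENSMUSG00000029687, chr6:47530139-47595341 on the minus strand of mm10), the main methyltransferase of PRC2 in dividing cells, varied more between libraries of a genotype than between genotypes. The controls had 23.8, 12.6, 15.1 and 13.7 normalized CPM, and the knockouts 17.4, 20.6, 7.4 and 25.4. Thus control 1 lay near the highest knockout, and knockout 3 was the lowest of all 8 libraries. The control mean was 16.3 ± 5.12 CPM and the knockout mean 17.7 ± 7.60 CPM (SD, n = 4), and the log2 fold change was 0.12 ± 0.34 (SE) with an edgeR adjusted p of 0.987. Without knockout 3 the log2 fold change was 0.37, and without knockout 4 it was -0.10, so the sign rested on single libraries. The mitochondrial share was 5.98%, 8.78% and 6.16% in the libraries with the most Ezh2 (knockout 4, control 1 and knockout 2), and 6.09% and 4.41% in knockout 1 and control 3. It was 3.26%, 5.18% and 2.04% in those with the least Ezh2 (control 4, control 2 and knockout 3), so the orders were alike but not the same. The part of this share in the Ezh2 values was not tested.

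Ezh1 (ENSMUSG00000006920, chr11:101191115-101226463, minus strand), the paralogue that is prominent in non-dividing cells, had 6.71, 7.30, 8.71 and 7.42 CPM in the controls. The knockouts had 7.19, 4.08, 10.3 and 7.89 CPM, so they held both the lowest and the highest of the 8 values. Knockout 3, lowest for Ezh2, was highest for Ezh1, and knockout 2 was lowest. The log2 fold change was -0.04 ± 0.29 (SE, edgeR adjusted p 0.995), with a 95% interval from -0.67 to 0.59. Without knockout 3 it was -0.24, and without knockout 2 it was 0.16.

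Promoter windows of RefSeq (GRCm38.p6), from 250 bases before to 50 bases after each start, were searched for an E2F-type motif, since E2F factors are known regulators of Ezh2 and of replication genes. The motif was searched on both strands in 4 spellings, TTTCCCGC, TTTCGCGC, TTTGCCGC and TTTGGCGC. It occurred in 744 of 32851 windows, or 2.26%. Windows were present for all 10 members, and 2 of them held the motif: Ezh2, where it starts 3 bases after the annotated start, and Suz12, where it starts 219 bases before it. The other 8 members, Ezh1 among them, had none in this window, which says only that these letters are not there. The stretches shown are those of Ezh2 and Suz12 with the motif, and that of the paralogue Ezh1 without it, each 5′ to 3′ on the strand of the gene with the motif in capitals. For Ezh2 it is chr6:47595009-47595038, across the RefSeq start. For Ezh1 and Suz12 they are the 250 bases upstream of the first exon, chr11:101226464-101226713 and chr11:79992856-79993105.
Ezh2, stretch with the motif: gggttgctgcgTTTGGCGCtcggtccggtc
Suz12, upstream stretch: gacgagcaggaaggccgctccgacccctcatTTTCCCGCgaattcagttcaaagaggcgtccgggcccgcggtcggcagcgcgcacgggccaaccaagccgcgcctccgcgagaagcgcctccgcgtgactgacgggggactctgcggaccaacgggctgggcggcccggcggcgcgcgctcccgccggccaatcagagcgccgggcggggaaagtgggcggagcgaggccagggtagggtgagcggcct
Ezh1, upstream stretch: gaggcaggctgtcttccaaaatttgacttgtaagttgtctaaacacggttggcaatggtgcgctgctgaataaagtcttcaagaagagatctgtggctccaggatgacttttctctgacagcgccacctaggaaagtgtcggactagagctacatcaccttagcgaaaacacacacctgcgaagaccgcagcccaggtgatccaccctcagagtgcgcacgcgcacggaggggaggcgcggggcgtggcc
Suz12 had 37 CpG dinucleotides in its 250 upstream bases and Ezh1 had 14. Of the 12 windows of the members, 11 held more CpG dinucleotides than the median of all windows, which was 7. Each spelling of the motif itself holds a CpG, so the 2.26% over all windows is not a matched background for the members.

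The core subunits Suz12 and Eed had the highest levels per kb of the members. Suz12 (ENSMUSG00000017548, chr11:79993106-80034123, plus strand), which holds the PRC2 core together, had 28.4, 27.4, 38.7 and 34.9 CPM in the controls and 36.7, 41.4, 33.4 and 31.2 CPM in the knockouts. It was the steadiest member: its highest library was 1.51 times its lowest, its coefficient of variation over the 8 libraries was 14.4%, and its log2 fold change was 0.14 ± 0.18 (SE, edgeR adjusted p 0.960). Eed (ENSMUSG00000030619, chr7:89954654-89980983, minus strand), which reads the H3 mark and stimulates the enzyme, had 15.7, 12.5, 17.1 and 16.0 CPM in the controls. Its knockouts had 11.5, 15.4, 12.8 and 23.4 CPM, and knockout 4 alone lay above the controls. The log2 fold change was 0.04 ± 0.24 (SE, edgeR adjusted p 0.995), and it was -0.21 without knockout 4. Of the exon bases of Eed, 6.8% are shared with E230029C05Rik on the other strand, and the strand setting of the counting is not given in the sources used here.

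Both accessory subunits overlapped between the genotypes. Jarid2 (ENSMUSG00000038518, chr13:44729474-44921643, plus strand), a Jumonji-family protein without demethylase activity that links PRC2 to its sites, had 28.1, 30.5, 23.4 and 18.9 CPM in the controls and 30.8, 29.5, 20.0 and 27.5 CPM in the knockouts. Its log2 fold change was 0.10 ± 0.20 (SE, edgeR adjusted p 0.985). Mtf2 (ENSMUSG00000029267, chr5:108065674-108109004, plus strand), a Polycomb-like protein that binds CpG-rich DNA, had 16.0, 11.3, 14 and 13.5 CPM in the controls and 12.4, 20.0, 15.3 and 16.8 CPM in the knockouts. Knockouts 2 and 4 were above every control, and knockouts 1 and 3 lay within their range. Its log2 fold change of 0.23 ± 0.21 (SE) had the smallest p of the members, an unadjusted p of 0.280 and an adjusted p of 0.919 in edgeR. Of its exon bases, 6.9% are shared with Tmed5 on the other strand.

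Of the PRC1 ubiquitin ligases, Rnf2 (ENSMUSG00000026484, chr1:151458004-151500955, minus strand) had the largest fold change among the members and also a wide spread. The controls had 8.09, 9.60, 12.2 and 13.0 CPM, and the knockouts had 16.6, 14.5, 5.99 and 13.5 CPM. Knockouts 1, 2 and 4 were thus above every control, while knockout 3 was below every control. The log2 fold change was 0.25 ± 0.30 (SE, edgeR adjusted p 0.960), and it was 0.47 without knockout 3 and 0.10 without knockout 1. Ring1 (ENSMUSG00000024325, chr17:34020792-34024680, minus strand), the other ligase, had 2.07, 2.06, 1.17 and 1.89 CPM in the controls and 1.72, 2.53, 1.64 and 2.12 CPM in the knockouts. These values rested on 13 to 44 counts per library, and the log2 fold change was 0.16 ± 0.39 (SE, edgeR adjusted p 0.986).

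Bmi1 (ENSMUSG00000026739, chr2:18677018-18686629, plus strand), the PCGF partner that activates the RING ligases, had 11.7, 8.57, 12.7 and 15.5 CPM in the controls. The knockouts had 13.2, 12.9, 16.8 and 11.6 CPM, and knockout 3 was here the highest library. The log2 fold change was 0.17 ± 0.23 (SE, edgeR adjusted p 0.968), and it was 0.05 without knockout 3 and 0.03 without control 2. Cbx7 (ENSMUSG00000053411, chr15:79915807-79971119, minus strand), a chromodomain protein of canonical PRC1, had 2.57, 3.49, 2.15 and 4.74 CPM in the controls and 1.66, 1.78, 6.58 and 4.00 CPM in the knockouts. It was the most variable member, with a highest library of 3.96 times the lowest and a coefficient of variation of 50.3%. The median over all tested genes, not matched for level, was 33.3%. The log2 fold change of Cbx7 was 0.09 ± 0.48 (SE, edgeR adjusted p 0.995) and became -0.39 without knockout 3, which was its highest library.

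**Figure D2:**
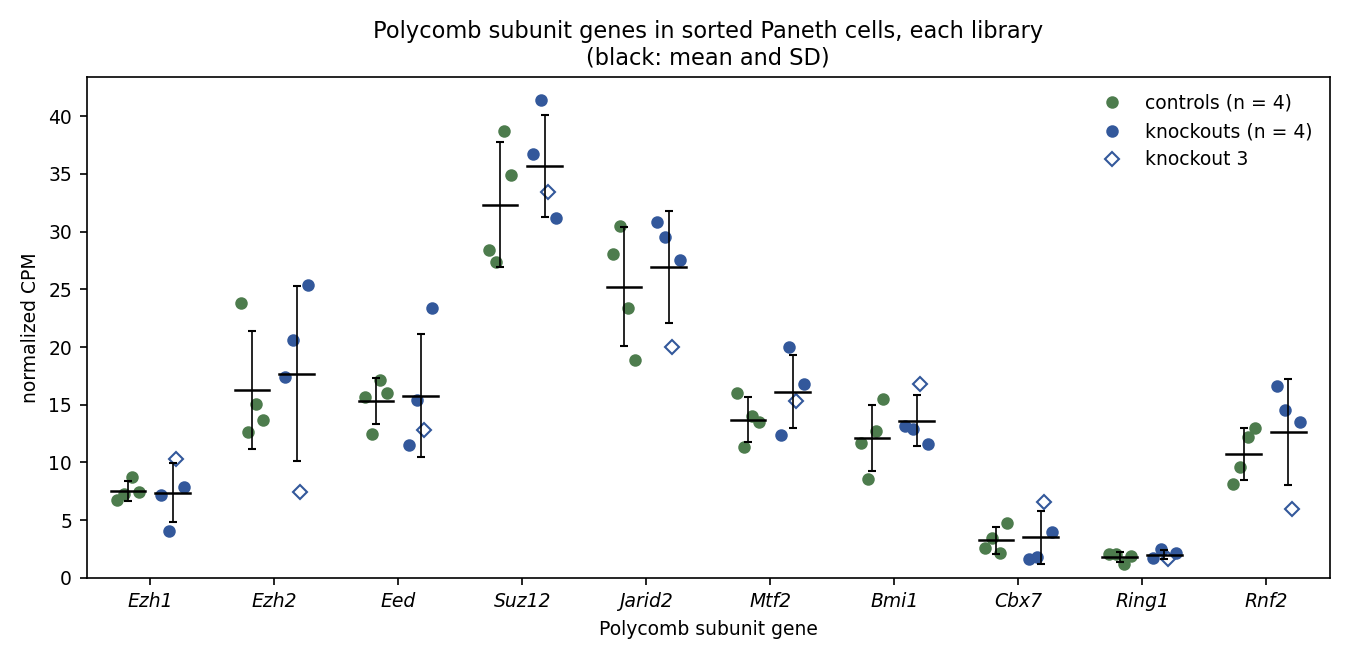
Normalized CPM of the 10 Polycomb subunit genes in each of the 8 libraries, controls in green and knockouts in blue, knockout 3 as an open diamond, with the mean and SD of each group in black (n = 4). The groups overlap for every gene, and knockout 3 is the lowest library for Ezh2 (7.4 CPM) and Rnf2 (5.99 CPM) and the highest for Ezh1, Bmi1 and Cbx7.

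Knockout 3 was the lowest of the 8 libraries for 2 members, Ezh2 and Rnf2, and the highest for 3 members, Ezh1, Bmi1 and Cbx7. The other 5 members of this library lay within the range of the remaining libraries. Its departure therefore did not have a common direction over the subunits, although it had the fewest counts of all libraries for 6 of 10 members. Without it, the log2 fold changes of the members not yet given so were 0.13 for Eed, 0.17 for Suz12, 0.21 for Jarid2, 0.25 for Mtf2 and 0.23 for Ring1.

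The label numbers of the libraries fall into 2 runs, and the genotype differences of several members did not have the same sign in both. Controls 1 and 2 and knockouts 1 and 2 form the first set, and the other 4 libraries the second. On the scale of mean log2(CPM + 0.5), 3 of 10 members differed in the same direction in both sets, namely Jarid2, Mtf2 and Ring1. Mtf2 was the most even of them, with knockouts higher by 0.22 in the first set and by 0.21 in the second. Rnf2 was higher in the knockouts by 0.78 in the first set and differed by -0.46 in the second. Cbx7 differed by -0.66 and 0.60, and Suz12 by 0.48 and -0.18. The genotype-by-set term of edgeR gave an unadjusted p of 0.0509 for Rnf2, 0.0893 for Cbx7 and 0.0392 for Suz12, each with an adjusted p of 0.867. Knockout 3 belongs to the second set. No shares over all tested genes are given for these directions or p-values, so they are no result particular to the members.

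Per kb of merged exons, the 10 genes could be put in an order of level over all 8 libraries. This order depends on the annotated lengths, which may differ from those of the transcripts expressed. Suz12 was first with 6.88 ± 0.991 CPM per kb (SD, n = 8), and it exceeded Eed, with 4.06 ± 0.969, in 8 of 8 libraries. Bmi1, Rnf2, Jarid2, Mtf2 and Ezh2 followed with 3.24, 2.83, 2.68, 2.62 and 2.54 CPM per kb. Neighbours among these 5 did not differ beyond their spread, since the higher mean was the higher value in at most 5 of 8 libraries. Ezh1 had 1.00 ± 0.239 CPM per kb and was below Ezh2 in 7 of 8 libraries. Ring1 and Cbx7 were last with 0.586 ± 0.124 and 0.520 ± 0.261 CPM per kb. Apart from Suz12 over Eed, no neighbour was higher in every library, and the ranges of all neighbours overlapped, Suz12 and Eed included. For scale, a level of 5.42 CPM, not divided by length, was the median over all tested genes, and 8 of the 10 members were above it.

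The balance between alternative subunits was compared within each library, as the log2 ratio of their counts per kb with 0.5 added to each count. Such a ratio does not depend on the scaling between libraries. Its size does depend on the annotated merged exon lengths, which may differ from those of the transcripts expressed. Ezh2 exceeded Ezh1 in 7 of 8 libraries, by 2.45-fold on average. The log2 ratio of Ezh1 to Ezh2 was -1.98, -0.94, -0.95 and -1.03 in the controls and -1.43, -2.49, 0.32 and -1.84 in the knockouts. Knockout 3 was the library with more Ezh1 than Ezh2, at a ratio of 1.25. The means were -1.22 ± 0.50 and -1.36 ± 1.2 (SD, n = 4 each), and the difference of -0.13 had a 2-sided exact permutation p of 0.8. Without knockout 3 the difference was -0.69, in a comparison of 4 with 3 libraries that cannot reach a p below 0.0571. Within the 2 library sets the difference was -0.50 and 0.23.

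Rnf2 exceeded Ring1 in 8 of 8 libraries, by 4.63-fold on average. The log2 ratio of Ring1 to Rnf2 averaged -2.21 ± 0.62 over controls and -2.21 ± 0.58 over knockouts (SD, n = 4; 2-sided exact permutation p of 1). The knockout mean of this ratio was -2.45 without knockout 3, lower than that of the controls by 0.24 on the log2 scale. Bmi1 exceeded its closest paralogue Pcgf2 (Mel18) in 8 of 8 libraries, by 4.44-fold on average. Its log2 ratio to Pcgf2 was 1.72, 1.21, 1.82 and 2.61 in the controls and 2.09, 2.01, 3.74 and 2.01 in the knockouts. The knockout mean was higher by 0.62 on the log2 scale (exact permutation p of 0.314), and by 0.19 without knockout 3, where Pcgf2 had 9 counts. Mtf2 and Jarid2 were near balance, with log2 ratios averaging -0.09 ± 0.40 over controls and 0.03 ± 0.40 over knockouts (SD, n = 4; exact permutation p of 0.571). Adjusted over the 4 ratios, every p was 1, and the smallest p that 70 assignments allow is 0.0286.

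**Figure D3:**
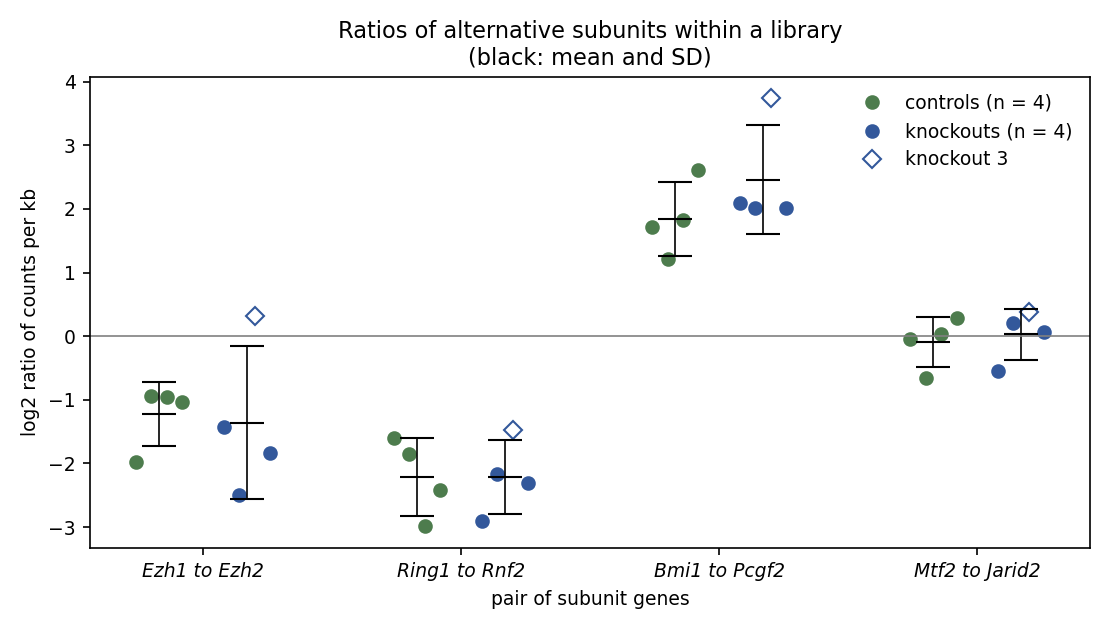
Log2 ratio of counts per kb for 4 pairs of alternative Polycomb subunits in each library, controls in green and knockouts in blue, knockout 3 as an open diamond, with the mean and SD in black (n = 4). Ring1 stays below Rnf2 and Bmi1 above Pcgf2 in 8 of 8 libraries, and knockout 3 is the one library above 0 for Ezh1 to Ezh2.

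Because Ezh2 is known as a gene of dividing cells, its level was set beside a proliferation score, the mean log2(CPM + 1) over 28 cell cycle genes that hold no Polycomb gene. The score was 3.47, 2.71, 3.15 and 2.70 in the controls and 3.65, 3.98, 2.84 and 3.62 in the knockouts. Knockouts 1, 2 and 4 were above every control, and knockout 3 was among the low libraries. Over the 8 libraries, Ezh2 tended to be higher where the score was higher, with a Pearson r of 0.75 (exact permutation p of 0.0286, adjusted over 2 relations 0.0572) and a Spearman rho of 0.71 (exact permutation p of 0.0576, adjusted 0.115). After adjustment the relation did not pass 0.05. Without control 4 and knockout 2, the libraries farthest from the median score, r was 0.81. Without control 3 or knockout 4 the unadjusted exact permutation p rose to 0.0514 and 0.0577, at an r of 0.75 and 0.73. Ezh1 went the other way, with a Pearson r of -0.65 (exact permutation p of 0.06) and a Spearman rho of -0.52 (exact permutation p of 0.197). Its r was -0.48 without control 4 and knockout 2, and -0.33 without knockout 2 alone (exact permutation p of 0.49). The permutations ran over all 8 libraries and did not take the library sets into account. These sets hold 4 libraries each, too few for a correlation within them.

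**Figure D4:**
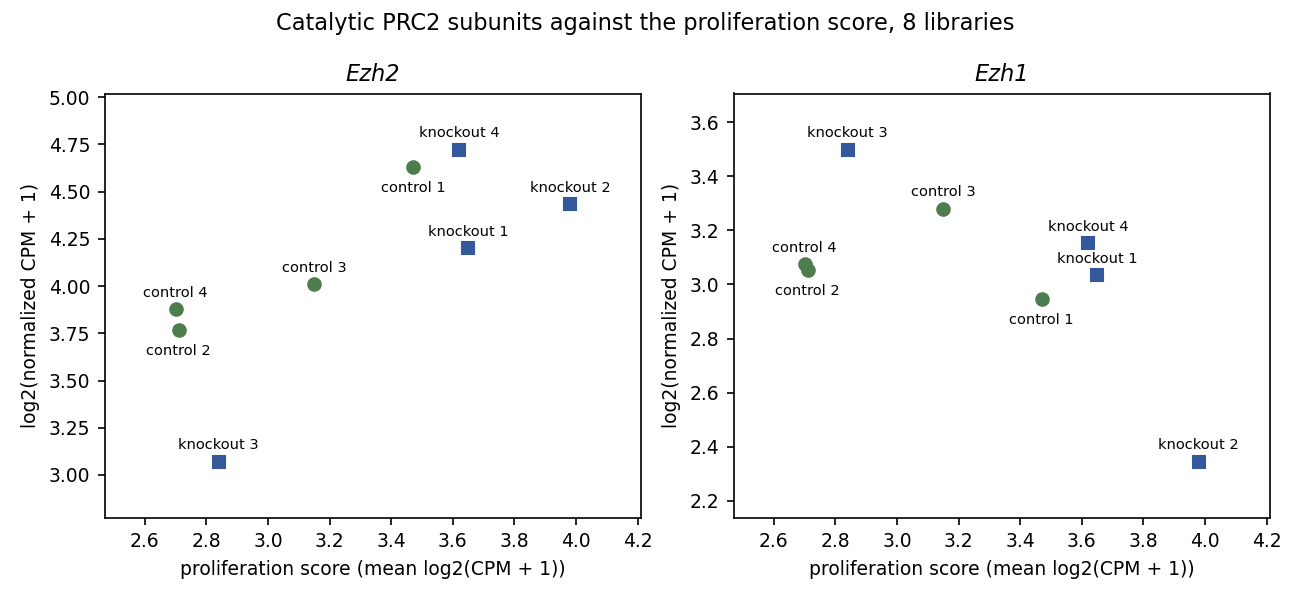
Level of Ezh2 and Ezh1, as log2(normalized CPM + 1), against the proliferation score, the mean log2(CPM + 1) of 28 cell cycle genes, for 4 controls (circles) and 4 knockouts (squares). Ezh2 is highest in the 4 libraries with the highest scores, and knockout 3 is the lowest for Ezh2 and the highest for Ezh1.

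Of the 28 cell cycle genes 27 were tested, and 27 of 27 had a log2 fold change above 0, as 6844 of all 13439 tested genes had, with a median of 0.69 beside 0.01 over all tested genes. None was called (smallest edgeR adjusted p 0.390), and 6 of 27 had an unadjusted p under 0.05, beside 6.88% of all tested genes. Ezh2, with 0.12, lay below the lowest of these genes, Tyms, with a log2 fold change of 0.14.

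The 5 tested genes with a level most like that of Ezh2 over the 8 libraries were E030022I16Rik, Hist1h4i, Wdr24, Mycl and Mthfd1, of 13429 genes compared. Their Pearson r with Ezh2 on log2(CPM + 1) was 0.995, 0.988, 0.987, 0.973 and 0.970, given as a description. Hist1h4i is a replication-dependent histone H4 gene, Wdr24 encodes a subunit of the GATOR2 complex that acts on nutrient sensing, Mycl is a Myc family member, and Mthfd1 encodes an enzyme of folate metabolism. All 5 were lowest in knockout 3, as Ezh2 was. Without that library r was 0.99, 0.97, 0.98, 0.94 and 0.96 over the other 7 libraries, and the genes ranked 1, 4, 2, 19 and 8, so that Mycl and Mthfd1 were no longer among the first 5.

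The wider Polycomb machinery was described through 5 lists with 51 genes, the 10 members among them, and 47 passed the filter. None of the 47 was called. An unadjusted p under 0.05 was found for 4, Aebp2, Rbbp7, Phc1 and Scmh1, of which Phc1 and Scmh1 are named after their values were seen, and the groups lay apart for 2, Aebp2 and Scmh1. These counts of 4 and 2 among 47 are near the 6.88% and 4.52% of all tested genes. The median log2 fold change was 0.09, with 29 higher and 18 lower in the knockouts.

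Among 11 tested genes of the PRC2 core and accessory list, Aebp2, a zinc finger protein found together with Jarid2 in 1 form of PRC2, differed most. It had 15.7, 15.1, 15.8 and 15.9 CPM in the controls and 11.9, 13.3, 7.87 and 10.7 CPM in the knockouts, so that every knockout lay below every control. Its log2 fold change was -0.51 ± 0.20 (SE) with an unadjusted edgeR p of 0.0290 and an adjusted p of 0.658. Rbbp7, a histone-binding protein shared with other chromatin complexes, had the highest level per kb of this list (14.6 CPM per kb) and a log2 fold change of 0.34 ± 0.15 (SE, adjusted p 0.698).

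In PRC1, 8 RING and PCGF genes were tested, and the largest difference was that of Pcgf5, with a control mean of 7.83 ± 1.28 CPM and a knockout mean of 11.2 ± 3.27 CPM (SD, n = 4; log2 fold change 0.51, edgeR adjusted p 0.788). Pcgf6, a partner in a variant PRC1, had the highest level per kb of this list at 4.80 CPM per kb. Of 9 tested CBX, PHC and SCM genes of canonical PRC1, 6 were higher and 3 lower, with a median of 0.43. Cbx2 had the largest log2 fold change, 0.85 ± 0.58 (SE, adjusted p 0.889). Scmh1, a Scm-like protein that joins canonical PRC1, had 4.89, 6.03, 5.12 and 5.13 CPM in the controls and 7.31, 7.64, 10.8 and 6.91 CPM in the knockouts. The knockouts lay above the controls (log2 fold change 0.62 ± 0.25, adjusted p 0.638). Phc1, a Polyhomeotic protein, had a log2 fold change of 0.79 ± 0.31 (SE, adjusted p 0.617).

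The 12 variant PRC1 partners had a median of -0.18, with 5 higher and 7 lower. L3mbtl2, a subunit of the Pcgf6-containing complex, had the largest difference, -0.53 ± 0.48 (SE, edgeR adjusted p 0.926), with 17.2% of its exon bases shared with Chadl, and Yaf2 had the highest level per kb at 3.31 CPM per kb. Of the 7 tested genes for enzymes and cofactors that remove the Polycomb marks, 4 were higher and 3 lower, with a median of 0.02. Asxl1, the cofactor of the H2A deubiquitinase Bap1, had the largest difference at 0.62 ± 0.34 (SE, edgeR adjusted p 0.817), and Usp16, another H2A deubiquitinase, the highest level per kb at 2.79 CPM per kb.

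Classical Polycomb targets, developmental regulators and cell cycle inhibitors that Polycomb keeps silent in many tissues, were mostly near the limit of detection in both genotypes. Of 18 listed genes 5 passed the filter, 8 had at most 3 counts in every library, and 1 of these, Nkx2-5, had none. A count of 3 corresponds to between 0.172 and 0.352 CPM, depending on the library. Foxc1, a forkhead factor, had the largest fold change of the tested genes and the lowest level, with 0.564, 0.873, 1.79 and 0.474 CPM in the controls and 3.80, 2.64, 2.94 and 3.52 CPM in the knockouts. The knockouts lay above the controls, knockout 3 included, and the counts were 6 to 20 against 25 to 64. Controls 1 and 4 had 9 and 6 counts, below the minimum count of 10, so Foxc1 passed the filter through the knockouts. The test results of Foxc1 are therefore given as a description. Its log2 fold change was 1.81 ± 0.47 (SE) with an unadjusted p of 0.00261 and an adjusted p of 0.321 in edgeR, so it was not called, while DESeq2's Wald test called it with an adjusted p of 0.0258. Over the main fit and the 14 alternatives that tested it, its adjusted p lay between 0.0258 and 0.633 and its log2 fold change between 1.59 and 2.33. It was not tested where at least 10 counts were required in every library. The imprinted cell cycle inhibitor Cdkn1c had the highest level per kb of the list, with a control mean of 19.5 ± 9.42 CPM and a knockout mean of 16.8 ± 8.54 CPM (SD, n = 4), and 30.7% of its exon bases are shared with Gm44732. Of the other tested targets, Pax6, also a gene of enteroendocrine cells, had a log2 fold change of -1.05 ± 0.59 (SE, edgeR adjusted p 0.827), beside enteroendocrine markers of which 4 of 4 were lower. The part of those cells in the Pax6 value was not tested. Cdkn2b and Tbx3 had log2 fold changes of -0.28 and 0.17, and Cdkn2a, the best-known target of Bmi1, had at most 3 counts in every library.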

How the data were processed

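RNA of sorted Paneth cells was sequenced after Smart-seq2 amplification, which copies polyadenylated RNA and amplifies it by PCR. Alignment by the authors was to mm10 with GSNAP, and reads mapped to 1 place were assigned to the genes of Ensembl release 92 by featureCounts 1.6.3. The deposited values are raw counts per gene and library, without normalization, and the 92 spike-in rows were left out. Reads are not collapsed to molecules, so counting limits cover counting error only.

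Groups are the genotypes that the labels give. The study gives 4 mice per genotype and calls them littermates without saying which share a litter, 1 label number occurs in both genotypes, and replicate numbers given here pair no samples. The members, lists and tests were chosen with earlier results of these data known. Counts were scaled by TMM factors and tested for 13439 genes that passed filterByExpr (minimum count 10, minimum total 15) with edgeR 4.0.16 (robust quasi-likelihood, R 4.3.3), with p-values adjusted over all of them. The SE of a log2 fold change was taken as its absolute value over the root of the F statistic. The common biological coefficient of variation was 0.376. Alternatives were DESeq2 1.42.0 size factors and its Wald test, limma 3.58.1 voom with quality weights, other filters and scalings, the library set as a block, and each library left out. The genotype-by-set term was added after the values were seen. Ratios and correlations were tested by exact permutation (scipy 1.17.1). The test functions were tested on simulated data.

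Named were all 10 members. Of the wider lists, called genes, ratio partners, the gene with the largest log2 fold change and that with the highest level per kb were named, together with the 5 genes most like Ezh2 and Kmt2a. Phc1, Scmh1, Nkx2-5, Pax6, Cdkn2b, Tbx3 and Cdkn2a were named beyond this rule, as were single marker and cell cycle genes. One gene that this rule names was tested and counted with the others and is not reported here. Promoters come from RefSeq (GRCm38.p6) and were matched by symbol for 10 of 10 members. Gene spans are those of the deposited table and, for the 10 members, the same as in GENCODE M21. Protein sequences were not used here.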

Additional observations from a re-analysis of the deposited data

Results flagged for a closer look

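In 30 groups of 4 libraries (each genotype for 10 members, 4 ratios and the proliferation score), the highest or lowest library was examined for its gap to the next one, and 2 stood apart, where chance alone gives about 1 in 20 groups. In the log2 ratio of Ezh1 to Ezh2, control 1 was lowest at -1.98 and the remaining controls had between -1.03 and -0.94, a gap of 0.913 of the whole range. In the log2 ratio of Bmi1 to Pcgf2, knockout 3 was the highest knockout at 3.74, against 2.01 to 2.09 in the others, a gap of 0.954 of the range. Pcgf2 rested on 9 counts in that library. For 1 of 10 members and 1 of 4 ratios, the genotypes lay apart in opposite directions in the 2 library sets. With so few libraries of a genotype in a set, this also arises by chance. No share over all tested genes is given for it, so it is no result particular to these genes. Suz12 was higher in both knockouts than in both controls of the first set and lower in both of the second, and the genotype-by-set term of edgeR was -0.67 ± 0.28 on the log2 scale (SE, unadjusted p 0.0392, adjusted p 0.867). The log2 ratio of Ring1 to Rnf2 differed by -0.80 in the first set and by 0.81 in the second, 1.61 apart, and this difference was not tested.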

How the results depend on the processing

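No paired analysis was possible because the labels of the genotypes share fewer than 2 numbers and name no litter. The run of label numbers (library set) was used as a block instead. None of the 10 members was called under any of 15 alternatives, and the smallest adjusted p of a member was 0.431. Of 150 recomputed fold changes of members 138 kept their direction and 12 changed it. With limma-voom the log2 fold change was -0.05 for Eed and -0.57 for Cbx7, and with the library set as a block -0.09 for Cbx7. Leaving out 1 library gave log2 fold changes from -0.24 to 0.16 for Ezh1, -0.10 to 0.37 for Ezh2, -0.21 to 0.18 for Eed, -0.02 to 0.21 for Jarid2 and -0.39 to 0.33 for Cbx7; they were 0.06 to 0.24 for Suz12, 0.11 to 0.35 for Mtf2, 0.03 to 0.30 for Bmi1, 0.00 to 0.24 for Ring1 and 0.10 to 0.47 for Rnf2. The genotype difference of the log2 ratio ranged from -0.69 to 0.24 for Ezh1 to Ezh2, from -0.26 to 0.23 for Ring1 to Rnf2 and from -0.06 to 0.31 for Mtf2 to Jarid2, and it was -0.04 for Ring1 to Rnf2 with 5 counts added. For Bmi1 to Pcgf2 it ranged from 0.19 to 0.88. The correlation with the proliferation score ranged from 0.73 to 0.79 for Ezh2 and from -0.73 to -0.33 for Ezh1. Against Mki67 alone, r was -0.70 for Ezh1, with an exact permutation p of 0.0368. Of the wider lists and targets, DESeq2's Wald test called 1 gene, Foxc1, which had passed the filter through the knockouts. Over all tested genes 25 were called, and 290 without a filter, 13 with at least 10 counts in every library, 138 with DESeq2's Wald test and 95 with limma-voom. Leaving out 1 library gave 10 (without control 3) to 152 (without knockout 3). The cause of these changes was not tested. Levels of Ring1 and Cbx7 are limited by their few counts.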
